A study of Danio rerio with 6 samples.

Results

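Genes of G2 phase and mitosis were followed in osteoblasts, the bone-forming cells, of regenerating zebrafish scales that had been sorted by a Geminin reporter. The list holds 46 genes chosen by symbol, from cyclin-dependent kinase 1 (cdk1) to the condensin subunits. Of these, 44 were matched to a row of the count tables, out of 34289 rows in all, and incenp and ube2c were not matched and are not analysed here. The geminin gene itself (gmnn) was left out because the reporter carries its degradation signal. The members were divided by role into 12 cyclins, kinases and their regulators, 15 kinetochore and checkpoint genes, 5 spindle genes, 8 cytokinesis genes and 6 condensin and chromosome genes.

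In the animal cell cycle, cyclins A and B bind Cdk1 and drive the cell from G2 phase into mitosis. The kinetochore proteins then attach chromosomes to the spindle, and the anaphase-promoting complex, activated by Cdc20, marks cyclin B and geminin for destruction. Many of these genes are transcribed mainly in late S and G2 phase, under factors that include FoxM1, so their transcripts are scarce in resting cells.

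The fish carried 2 transgenes driven by osterix (osx, also called sp7) regulatory sequence, H2A-mCherry, which marks osteoblast nuclei, and Venus-hGeminin, which is destroyed outside S, G2 and M phase. Scales were plucked, and the regenerating scales were collected at day 4 from 3 to 5 fish per sample. The tissue of each sample was digested with Liberase, an enzyme mix, for 1 h. Live single mCherry-positive cells were sorted into a Venus-hGeminin-positive and a Venus-hGeminin-negative gate, with 3 RNA sequencing libraries per gate. All libraries therefore come from the same double-transgenic line and the same stage, and they differ by the gate. Any cell in which the osterix sequence is active enters the sort, and the 2 gates are pools of cells, not single cells. The sample titles call the Geminin-positive libraries high Erk, the kinase of the MAP kinase cascade, whereas the series' design has the reporter high where Erk is low, so the groups are named here by gate alone. The sources used here do not say whether the replicates came from separate batches of fish, so p-values measure the spread between these libraries, which may be technical.

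Total counts ranged from 16482720 to 19087246 in the Geminin-positive and from 15854710 to 34472612 in the Geminin-negative libraries. On the first principal component Geminin-negative replicate 3 stood apart, with a score of -203.4, against -56.6 and -15.6 for the other two of its gate and 72.5 to 108.3 for the Geminin-positive libraries. Osteoblast markers took 26.9% to 40.1% of counts in the Geminin-positive and 12.9% to 21.2% in the Geminin-negative libraries. Single markers went both ways. Of the 11 tested, 6 had a positive log2 fold change (higher in the Geminin-positive gate) and 5 a negative one, between -0.71 and 2.41. Of the 12 osteoblast markers, 1, bglap (osteocalcin), had at most 1 count in each Geminin-positive library, and the others had counts in all 6 libraries. Leukocyte markers, summed over 12 matched genes, were at 71.7 to 195 CPM (read counts scaled to a common library size) in the Geminin-positive and 2215 to 3057 CPM in the Geminin-negative libraries, and the leukocyte actin regulator gene coro1a had 0 counts in all 3 Geminin-positive libraries. Osteoclast markers, over 10 matched genes, summed to 454 to 497 CPM in the Geminin-positive and 1291 to 1566 CPM in the Geminin-negative libraries, with acp5b and ocstamp at 0 in the Geminin-positive gate. Over 8 keratinocyte markers the sums were 731 to 919 CPM in the Geminin-positive and 820 to 4122 CPM in the Geminin-negative libraries, and over 8 endothelium and nerve markers at most 1.66 and 0.102 CPM. The part of these other cells in the values of the mitosis genes was not tested.

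The Geminin-positive libraries held more transcript of the G2 phase and mitosis genes than the Geminin-negative libraries. The 44 members together took 0.0612%, 0.0600% and 0.103% of all counts in Geminin-positive replicates 1 to 3, against 0.0198%, 0.0178% and 0.0282% in Geminin-negative replicates 1 to 3. The lowest Geminin-positive library was thus above the highest Geminin-negative one, and the means, 0.0748% ± 0.0247 and 0.0219% ± 0.00549 (SD, n = 3 each), stood in a ratio of 3.41. The 10 most abundant genes took 42.3% to 53.2% of counts in the Geminin-positive and 23.8% to 32.2% in the Geminin-negative libraries, and without them the members' mean shares were 0.142% and 0.0306% in the same order. In bulk libraries, fewer cells of a type and less RNA per cell cannot be told apart. The members were chosen with earlier results of these data known, so these shares are given without a test.

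**Figure D1:**
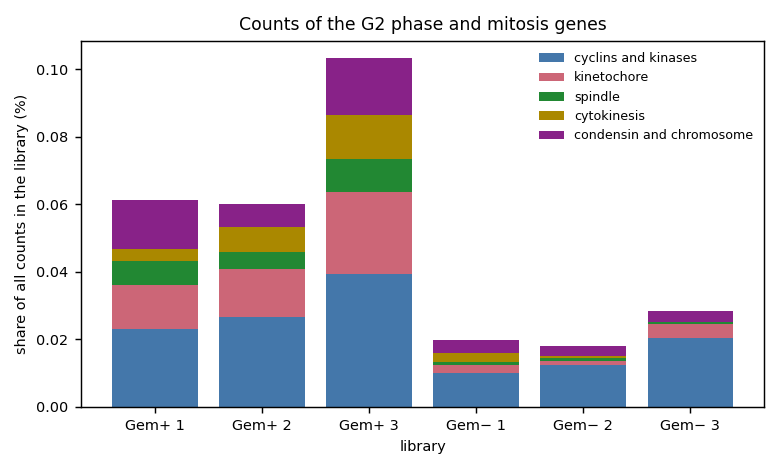
Share of all counts in each library (y axis, percent) taken by the members, stacked by role group, for the 3 Geminin-positive and 3 Geminin-negative libraries (x axis). The Geminin-positive bars reach 0.0600% to 0.103% and the Geminin-negative bars 0.0178% to 0.0282%, and in the Geminin-negative bars the cyclins and kinases make up most of the height.

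The ratio ranged from 2.08 to 9.42 over the role groups. Cyclins and kinases took 0.0296% ± 0.00848 of counts in the Geminin-positive and 0.0142% ± 0.00542 in the Geminin-negative libraries, a ratio of 2.08. Kinetochore genes took 0.0172% ± 0.00623 in the Geminin-positive and 0.00249% ± 0.00141 in the Geminin-negative libraries, a ratio of 6.93. Spindle genes took 0.00726% ± 0.00230 in the Geminin-positive and 0.000770% ± 0.000125 in the Geminin-negative libraries, a ratio of 9.42. Cytokinesis genes took 0.00802% ± 0.00476 in the Geminin-positive and 0.00121% ± 0.00150 in the Geminin-negative libraries, a ratio of 6.63. Condensin and chromosome genes took 0.0128% ± 0.00527 and 0.00325% ± 0.000486 in the same order, a ratio of 3.92. These ratios were not tested against each other. Within the first group cdc25b, the gene of a phosphatase that activates Cdk1, held much of the count, and it was singled out after its values were seen. It made up 14.8%, 17.8% and 9.57% of the members' counts in Geminin-positive replicates 1 to 3, against 39.3%, 53.0% and 40.5% in Geminin-negative replicates 1 to 3. Without cdc25b the members took 0.0649% ± 0.0247 of counts in the Geminin-positive and 0.0124% ± 0.00420 in the Geminin-negative libraries, a ratio of 5.24.

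The gates also differed in how many members were seen at all. Of the 44 members, 41, 35 and 41 had at least 1 count in Geminin-positive replicates 1 to 3, against 33, 17 and 18 in Geminin-negative replicates 1 to 3. Geminin-negative replicate 2 had the largest total count of the 6 libraries and the fewest members detected. Among all 12855 genes tested, 5.79%, 16.2% and 13.3% were at 0 in Geminin-positive replicates 1 to 3 and 2.38%, 9.95% and 18.5% in Geminin-negative replicates 1 to 3, so over all genes the gates overlapped in that share. Of the 37 members tested, 0, 4 and 0 were at 0 in the Geminin-positive and 6, 20 and 20 in the Geminin-negative replicates. A gene can pass the filter for testing through its Geminin-positive libraries alone. In the Geminin-positive gate 33 members had counts in all 3 libraries, against 7 members in the Geminin-negative gate. Another 7 members had 0 counts in all 3 Geminin-negative libraries: foxm1, bub1, bub1bb, nuf2, aspm, ncapg and ncapd2. Apart from nuf2, which had no count anywhere, that was 6 of the 43 members with a count, against 9.26% of all genes with a count, so this share was close to that over all genes. A count of 0 allows up to 3 counts, which is 0.188 to 0.216 CPM in a Geminin-positive and 0.0824 to 0.153 CPM in a Geminin-negative library, for counting error only. Only cdk1, cks1b, cks2, cdc25b, tpx2 and smc4 had counts in all 6 libraries.

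**Figure D2:**
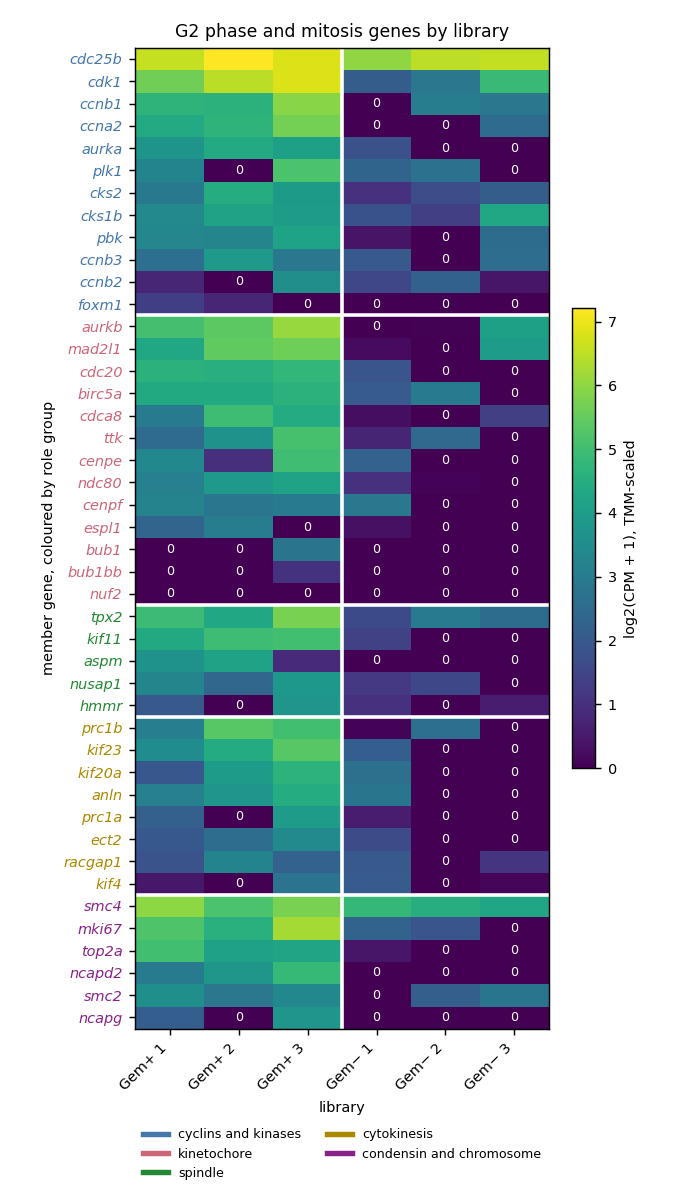
Level of each of the 44 matched members (rows, grouped and coloured by role) in each library (columns), as log2(CPM + 1) with TMM scaling; a printed 0 marks a library with no count. The 3 Geminin-positive columns have 3 to 9 members at 0 and the Geminin-negative columns 11 to 27.

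The mean CPM was higher in the Geminin-positive libraries for 43 of the 44 members, and the remaining one, nuf2, had no count in any library. Over all genes with a count, 47.0% had the higher mean in the Geminin-positive gate. In CPM scaled by TMM, every Geminin-positive library was above every Geminin-negative library in 28 of the 44 members. That compares with 5.25% of all genes with a count and 8.09% of the genes tested. No member was separated in the other direction, against 10.3% of the genes tested. As shares of total counts, the gates overlapped for smc4, smc2, mad2l1, ttk, ccnb3 and cdc25b. For smc4, 489 of 19087246 counts in Geminin-positive replicate 2 stood against 521 of 15854710 in Geminin-negative replicate 1. Among the 43 members with a count, Geminin-positive replicate 3 was the highest library for 28, replicate 2 for 9 and replicate 1 for 5. The exception was cks1b, the gene of a small Cdk-binding subunit, with 9.59, 16.9 and 14.7 CPM in Geminin-positive replicates 1 to 3, against 2.51, 1.59 and 18.6 CPM in Geminin-negative replicates 1 to 3.

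The test per gene called no member. In edgeR's quasi-likelihood test with Benjamini-Hochberg adjustment over 12855 genes and a threshold of 0.05, 0 of the 37 members tested passed, against 0.124% of all genes called higher and 0.482% called lower. Among the cell type markers, the same test called 5 of 11 leukocyte and 2 of 9 osteoclast markers lower, against the same 0.482%. It called 2 of 11 osteoblast markers higher, against 0.124%, and 0 of 8 keratinocyte markers. The smallest adjusted p among members was 0.06063, for ncapd2. At an unadjusted p under 0.05, 13 of the 37 were higher and 0 lower, against 3.64% and 5.76% of all genes. DESeq2 called 12 members higher, against 2.09% of its genes, edgeR without a filter 15, against 0.721%, and limma-voom 1, against 0.303%. None of these fits called a member lower, against 3.93%, 1.85% and 0.451% of genes in the same order. Without Geminin-negative replicate 1, edgeR called 3 members, cdc20, kif11 and top2a, with 0.0367% of all genes higher and 0.198% lower. Without Geminin-negative replicate 3 it called 2, ccna2 and aurkb, with 0.0273% higher and 0.144% lower. Another 7 members were not tested because fewer than 3 libraries passed the filter's minimum: foxm1, bub1, bub1bb, espl1, nuf2, kif4 and ncapg. The 37 tested members had a median log2 fold change of 3.02, against -0.01 over all genes tested, but a gene that passes the filter through its Geminin-positive libraries alone has to differ, so this median describes and does not test the list. The signs of the fold changes and the counts of members at an unadjusted p under 0.05 share this limit. All 37 were positive under TMM scaling, against 49.6% of all genes, and likewise under size factors and under library size alone. That last scaling shifted the median of all genes to -0.47, against a member median of 2.59, and called 12 genes higher and 173 lower, against 16 higher and 62 lower under TMM.

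**Figure D3:**
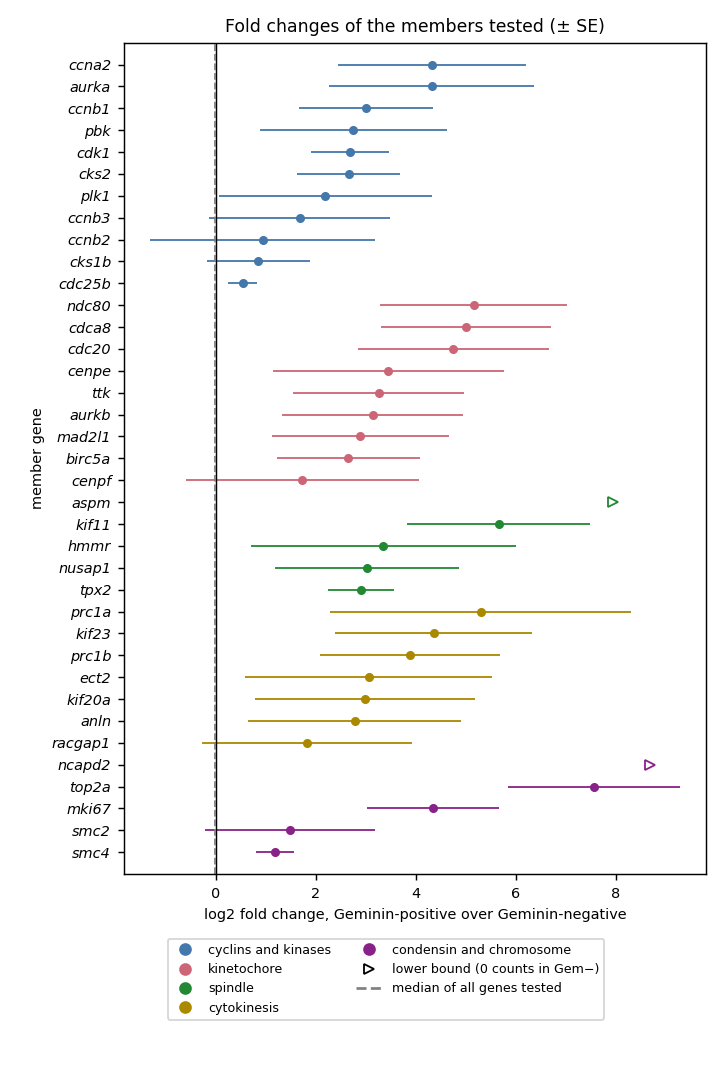
Log2 fold change of the 37 members tested (x axis, Geminin-positive over Geminin-negative, edgeR, bars ± SE), by gene and role group; open triangles are lower bounds for aspm and ncapd2, which had 0 counts in the Geminin-negative libraries. The dashed line is the median of all genes tested, at -0.01, and every member lies to the right of it.

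Among the cyclins and kinases, 11 of 12 members were tested, with log2 fold changes between 0.54 and 4.33 and a median of 2.66. The mitotic kinase gene cdk1 (ENSDARG00000087554, chromosome 17, 20903855 to 20909625, danRer10) had 48.6, 86.6 and 112 CPM in Geminin-positive replicates 1 to 3, against 3.32, 6.26 and 28.7 CPM in Geminin-negative replicates 1 to 3. The gates did not overlap, and Geminin-negative replicate 3 was well above the other two of its gate. Its log2 fold change was 2.69 (SE 0.78, adjusted p = 0.2331 by edgeR), and it was called by DESeq2 (adjusted p = 0.0218), by limma-voom (0.04849) and by edgeR without a filter (8.619e-06). Without Geminin-negative replicate 3 the fold change was 4.07 (edgeR adjusted p = 0.05164), and without any other single library the adjusted p was 0.2194 to 0.5441. The small Cdk subunit gene cks2 had 6.54, 21.1 and 14.2 CPM in Geminin-positive replicates 1 to 3, against 1.02, 2.25 and 3.33 CPM in Geminin-negative replicates 1 to 3. Its log2 fold change was 2.66 (SE 1.03, adjusted p = 0.4112 by edgeR, DESeq2 adjusted p = 0.01657). The row of cks2 shares 94 exon bases with shc2 on the other strand.

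The 4 cyclin genes had at most 7.11 CPM in any Geminin-negative library. The cyclin A gene ccna2, whose product works with Cdks in S and G2 phase, had 20.1, 24.7 and 51.0 CPM in Geminin-positive replicates 1 to 3, against 0, 0 and 4.77 CPM in Geminin-negative replicates 1 to 3. All its Geminin-negative counts were thus in replicate 3, and without that library it was called (edgeR adjusted p = 0.04034, against 0.5242 with it). Leaving that library out puts the gate at 0, and without any other single library the adjusted p was 0.4902 to 0.7974. The cyclin B gene ccnb1 had 24.7, 23.7 and 59.9 CPM in the Geminin-positive replicates, against 0, 7.11 and 6.30 CPM in the Geminin-negative replicates (log2 fold change 3.01 with an SE of 1.34, adjusted p = 0.5499 by edgeR). These gates did not overlap either. The second B-type cyclin gene, ccnb2, had 0.699, 0 and 10.8 CPM in the Geminin-positive and 1.89, 3.74 and 0.360 CPM in the Geminin-negative replicates, so the gates overlapped. Its log2 fold change of 0.94 (SE 2.25) turned to -2.49 without Geminin-positive replicate 3. The third, ccnb3, had 5.21, 13.99 and 6.33 CPM in the Geminin-positive and 3.02, 0 and 4.95 CPM in the Geminin-negative replicates. The gates were apart by a small margin in CPM scaled by TMM, but overlapped as shares of total counts. The mitotic kinase gene pbk had 9.15, 8.80 and 16.99 CPM in the Geminin-positive and 0.307, 0 and 4.86 CPM in the Geminin-negative replicates, with gates apart.

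The Cdk1-activating phosphatase gene cdc25b had the smallest fold change of the 37: 94.8, 147 and 114 CPM in Geminin-positive replicates 1 to 3, against 63.1, 89.6 and 91.9 CPM in Geminin-negative replicates 1 to 3 (log2 fold change 0.54 with an SE of 0.29, adjusted p = 0.7236 by edgeR). The Aurora kinase gene aurka, of the spindle poles, had 12.3, 20.4 and 15.98 CPM in the Geminin-positive replicates, against 2.46, 0 and 0 CPM in the Geminin-negative replicates, with gates well apart. The polo-like kinase gene plk1 had 8.51, 0 and 34.7 CPM in the Geminin-positive and 3.99, 5.41 and 0 CPM in the Geminin-negative replicates, and its gates overlapped. The row of plk1 overlaps si:ch211-14k19.12 on the opposite strand by 78 bases, but that gene had 0 counts in all 6 libraries. The transcription factor gene foxm1, a known activator of G2 and mitosis genes, was close to the limit of detection, with 24, 10 and 0 counts in the Geminin-positive replicates and 0 in each Geminin-negative replicate, at least 19.4-fold higher against a floor of 3 counts over the group. Its row shares 2114 exon bases with the opposite-strand gene si:ch73-352p4.8, and reads from the 2 strands cannot be told apart without a stated strand setting.

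Kinetochore and checkpoint genes had a median log2 fold change of 3.26 over the 9 tested of 13 matched. In CPM scaled by TMM, 7 of the 13 were higher without overlap, against 5.25% of all genes with a count. The borealin gene cdca8, of the chromosomal passenger complex, had 6.86, 30.1 and 20.4 CPM in Geminin-positive replicates 1 to 3, against 0.205, 0 and 1.57 CPM in Geminin-negative replicates 1 to 3 (log2 fold change 5.01 with an SE of 1.70, adjusted p = 0.3254 by edgeR; DESeq2 adjusted p = 0.0158). Its row shares 278 exon bases with airim on the other strand. The Ndc80 complex gene ndc80, of the microtubule attachment site, had 7.88, 13.9 and 16.7 CPM in the Geminin-positive replicates, against 1.02, 0.0549 and 0 CPM in the Geminin-negative replicates (log2 fold change 5.15 with an SE of 1.87, adjusted p = 0.3635 by edgeR; DESeq2 adjusted p = 0.01207). Each Geminin-positive library exceeded the Geminin-negative ones several times over for both genes. The gene of the other Ndc80 complex member listed, nuf2, had 0 counts in all 6 libraries. Of its 1652 exon bases, 1562 lie within znf831 on the same strand, and how such shared reads were counted is not given in the sources used here, so no level can be read from its 0.

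The activator of the anaphase-promoting complex was among the more even members. Its gene cdc20 had 23.8, 22.4 and 26.5 CPM in Geminin-positive replicates 1 to 3, against 2.71, 0 and 0 CPM in Geminin-negative replicates 1 to 3 (log2 fold change 4.75 with an SE of 1.90, adjusted p = 0.4439 by edgeR). Its counts in the Geminin-negative gate came from replicate 1 alone, and without that library, which leaves the gate at 0, the edgeR adjusted p was 0.03516. Without any other single library it was 0.5171 to 0.7269. The spindle checkpoint gene mad2l1 had 18.7, 42.8 and 48.1 CPM in the Geminin-positive replicates, against 0.153, 0 and 14.6 CPM in the Geminin-negative replicates. The passenger complex kinase gene aurkb had 33.2, 41.0 and 66.8 CPM in the Geminin-positive replicates, against 0, 0.0275 and 15.97 CPM in the Geminin-negative replicates. Both were close to 0 in 2 Geminin-negative libraries and clearly present in replicate 3, and without that library aurkb was called (edgeR adjusted p = 0.01842, against 0.7863 with it). Without any other single library it was not called (0.584 to 0.9216). The checkpoint kinase gene ttk (Mps1) had 4.70, 11.8 and 33.5 CPM in the Geminin-positive replicates, against 0.665, 4.50 and 0 CPM in the Geminin-negative replicates. Geminin-negative replicate 2 lay just under Geminin-positive replicate 1 in CPM scaled by TMM, and just above it as a share of total counts.

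The survivin gene birc5a, also of the passenger complex, had 19.6, 19.9 and 23.8 CPM in Geminin-positive replicates 1 to 3, against 3.17, 6.84 and 0 CPM in Geminin-negative replicates 1 to 3, with gates well apart. The checkpoint kinase gene bub1 and its relative bub1bb were seen in Geminin-positive replicate 3 alone, with 93 and 17 counts. Against the floor, with counts pooled over each gate, that was at least 53.2-fold and 9.72-fold. These folds rest on that library and cover the counting error of the Geminin-negative gate only, not that of the 93 and 17 counts. The separase gene espl1, whose product cuts cohesin at anaphase, had 64, 100 and 0 counts in the Geminin-positive and 5, 0 and 0 in the Geminin-negative replicates. The kinetochore genes cenpe and cenpf had overlapping gates. For cenpe, a kinesin gene, 9.34, 1.01 and 30.9 CPM in the Geminin-positive replicates stood against 3.79, 0 and 0 CPM in the Geminin-negative replicates. For cenpf, the gene of a large outer kinetochore protein, 8.32, 6.06 and 6.71 CPM in the Geminin-positive replicates stood against 6.34, 0 and 0 CPM in the Geminin-negative replicates, so Geminin-negative replicate 1 reached the level of the other gate.

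All 5 spindle genes were tested, with a median log2 fold change of 3.35. The microtubule nucleation gene tpx2 (ENSDARG00000078654, chromosome 23, 32102043 to 32111690), whose product activates Aurora A, had 29.9, 19.0 and 53.0 CPM in Geminin-positive replicates 1 to 3, against 2.05, 6.65 and 4.86 CPM in Geminin-negative replicates 1 to 3. It was one of the few members with counts in all 6 libraries, and its log2 fold change of 2.91 had the smallest standard error among those above 2 (SE 0.66, adjusted p = 0.1208 by edgeR; DESeq2 adjusted p = 0.0004418). The bipolar spindle kinesin gene kif11 had 19.6, 30.3 and 31.6 CPM in the Geminin-positive replicates, against 1.64, 0 and 0 CPM in the Geminin-negative replicates (log2 fold change 5.66 with an SE of 1.83, adjusted p = 0.3009 by edgeR). Without Geminin-negative replicate 1, the one library of that gate with counts, its edgeR adjusted p was 0.03398, and without any other single library 0.3487 to 0.5979. The spindle pole gene aspm had 11.8, 16.8 and 0.815 CPM in the Geminin-positive replicates and 0 counts in the Geminin-negative gate, at least 247-fold higher against the floor (edgeR adjusted p = 0.1728; DESeq2 adjusted p = 7.747e-06). Its level in Geminin-positive replicate 3, the library where most members were highest, was the lowest of its gate.

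The remaining spindle genes were less even. The microtubule bundling gene nusap1 had 8.83, 4.25 and 13.4 CPM in the Geminin-positive replicates, against 1.28, 1.95 and 0 CPM in the Geminin-negative replicates (edgeR adjusted p = 0.8234). The gates were apart. Its row shares 639 exon bases with NDUFAF1, which had 255 to 717 counts per library, and 273 with oip5, both on the other strand. The spindle pole gene hmmr had 3.05, 0 and 12.5 CPM in the Geminin-positive and 1.02, 0 and 0.495 CPM in the Geminin-negative replicates, with overlapping gates.

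Cytokinesis genes had a median log2 fold change of 3.06 over the 7 tested of 8, with 4 of 8 higher without overlap between gates, against 5.25% of all genes with a count. None was under an unadjusted p of 0.05, against 3.64% of all genes higher. They were spread unevenly over the Geminin-negative libraries, with 8, 1 and 2 of the 8 detected in replicates 1 to 3, against 8, 6 and 8 in Geminin-positive replicates 1 to 3. The centralspindlin kinesin gene kif23 had 10.4, 20.7 and 39.7 CPM in Geminin-positive replicates 1 to 3, against 3.48, 0 and 0 CPM in Geminin-negative replicates 1 to 3 (log2 fold change 4.36 with an SE of 1.97, adjusted p = 0.5635 by edgeR). Its partner gene racgap1 had 2.61, 8.51 and 3.82 CPM in the Geminin-positive and 3.02, 0 and 1.17 CPM in the Geminin-negative replicates, and the gates overlapped. The central spindle kinesin gene kif20a had 2.86, 14.6 and 24.2 CPM in the Geminin-positive and 5.27, 0 and 0 CPM in the Geminin-negative replicates. Geminin-negative replicate 1 was above Geminin-positive replicate 1 for both of these genes. The row of kif20a shares 461 exon bases with CDC23 on the opposite strand.

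The duplicated genes of the microtubule bundler Prc1 differed in level. The copy prc1b, on chromosome 7, had 7.50, 39.4 and 31.3 CPM in the Geminin-positive replicates, against 0.0511, 5.16 and 0 CPM in the Geminin-negative replicates (log2 fold change 3.89 with an SE of 1.80, adjusted p = 0.5773 by edgeR), with gates apart. The copy prc1a, on chromosome 25, had 3.62, 0 and 14.8 CPM in the Geminin-positive and 0.460, 0 and 0 CPM in the Geminin-negative replicates, with overlapping gates. The anillin gene anln, of the contractile ring, had 7.88, 12.7 and 20.9 CPM in the Geminin-positive and 6.03, 0 and 0 CPM in the Geminin-negative replicates. The RhoA exchange factor gene ect2 had 2.92, 4.97 and 10.03 CPM in the Geminin-positive and 2.15, 0 and 0 CPM in the Geminin-negative replicates. In both, Geminin-negative replicate 1 lay just under the lowest Geminin-positive library. The chromokinesin gene kif4, with 6, 0 and 90 counts in the Geminin-positive and 64, 0 and 2 in the Geminin-negative replicates, did not pass the filter.

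Condensin and chromosome genes had the largest group median, a log2 fold change of 4.34 over the 5 tested of 6, which is the value of mki67. Their ratio of shares, 3.92, was below those of spindle (9.42), kinetochore (6.93) and cytokinesis (6.63) genes, and above that of cyclins and kinases (2.08). In CPM scaled by TMM, 5 of the 6 were higher without overlap, against 5.25% of all genes with a count. Of these, smc4 and smc2 overlapped as shares of total counts. The condensin I gene ncapd2 (ENSDARG00000005058, chromosome 2, 44896905 to 44924594) had 105, 181 and 438 counts in Geminin-positive replicates 1 to 3 and 0 in each Geminin-negative replicate, at least 414-fold higher against the floor (edgeR adjusted p = 0.06063, 5.02e-10 to 0.3373 over the alternatives). The condensin I gene ncapg was also at 0 throughout the Geminin-negative gate, with 54, 0 and 199 counts in the Geminin-positive replicates (DESeq2 adjusted p = 0.03046). With counts pooled over each gate that was at least 145-fold higher. Geminin-positive replicate 2 was itself at 0, so the gates overlapped. The topoisomerase gene top2a, whose product untangles sister chromatids, had 31.9, 16.6 and 17.5 CPM in the Geminin-positive replicates, against 0.358, 0 and 0 CPM in the Geminin-negative replicates (log2 fold change 7.55 with an SE of 1.72, adjusted p = 0.1204 by edgeR). Its 7 Geminin-negative counts were all in replicate 1, and without that library, which leaves the gate at 0, the edgeR adjusted p was 0.04786. Without any other single library it was 0.1984 to 0.2698.

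The proliferation marker gene mki67 (Ki-67) had 36.5, 23.0 and 74.8 CPM in Geminin-positive replicates 1 to 3, against 3.89, 2.72 and 0 CPM in Geminin-negative replicates 1 to 3 (log2 fold change 4.34 with an SE of 1.32, adjusted p = 0.2558 by edgeR; DESeq2 adjusted p = 0.01766). The core condensin ATPase genes, which serve condensin I and II alike, differed less between the gates. The ATPase gene smc4 had 61.9, 35.3 and 53.4 CPM in the Geminin-positive replicates, against 26.7, 21.5 and 18.2 CPM in the Geminin-negative replicates (log2 fold change 1.18 with an SE of 0.38, adjusted p = 0.2932 by edgeR; DESeq2 adjusted p = 0.03554). It was well expressed in every library of both gates, though its row shares 180 exon bases with IFT80 on the other strand. Its partner smc2 had 11.1, 6.27 and 9.28 CPM in the Geminin-positive replicates, against 0, 3.54 and 5.98 CPM in the Geminin-negative replicates (log2 fold change 1.48 with an SE of 1.70, adjusted p = 0.9999 by edgeR). The difference of these fold changes from those of ncapd2 and ncapg was not tested.

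Levels between genes were compared per length, in TPM, the share of each transcript after its count is divided by its exon length. In the Geminin-positive libraries the highest member was cdk1, at 116 ± 45.4 TPM (SD, n = 3), followed by mad2l1 at 80.3 ± 33.2, cdc25b at 71.0 ± 8.77 and aurkb at 56.3 ± 22.6 TPM. These neighbours differed by less than their spread. A second tier between 23.1 and 30.1 TPM held ccnb1, cks1b, birc5a, cks2, tpx2 and smc4, which also lay within each other's spread, and prc1b at 20.5 and cdc20 at 19.9 TPM came next. In the Geminin-negative libraries the order was another one. There cdc25b was highest at 57.8 ± 7.99 TPM, followed by cdk1 at 21.3 ± 23.6, cks1b at 19.1 ± 24.1, mad2l1 at 13.0 ± 22.2 and smc4 at 11.9 ± 3.42 TPM. Of these 5, cdc25b stood clear of the rest, and the SDs of cdk1, cks1b and mad2l1 exceeded their means because replicate 3 held most of their level.

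The wider mitotic gene set was looked up in 4 further lists of 110 genes, of which 97 were matched and 76 tested. None passed the edgeR test in either direction, 16 were higher and 0 lower at an unadjusted p under 0.05, against 3.64% and 5.76% of all genes. DESeq2 called 21 higher and 0 lower, against 2.09% and 3.93% of its genes. The median log2 fold change was 1.28, against 3.02 for the members and -0.01 for all genes. Of the 76, 63 were positive, against 49.6% of all genes. The filter limit given for the members holds for these genes too. Their medians, signs and counts at an unadjusted p under 0.05 therefore describe them and do not test them. Together these genes took 0.0964% ± 0.0272 of counts in the Geminin-positive and 0.0854% ± 0.0162 in the Geminin-negative libraries, a ratio of 1.13, with overlapping gates. As summed CPM, scaled by TMM, the gates did not overlap, at 967 to 1442 in the Geminin-positive and 643.5 to 805 in the Geminin-negative libraries. Kinetochore and centromere genes had a median of 1.87 with 21 of 21 positive and a ratio of shares of 1.69. Spindle and cytokinesis genes had a median of 1.80 with 19 of 22 positive and a ratio of 1.95. Condensin and cohesin genes had a median of 0.46 with 14 of 17 positive, and genes of mitotic entry and exit 0.15 with 9 of 16 positive. The ratios of shares of these last lists were 0.939 and 0.826, so their mean shares of counts were lower in the Geminin-positive libraries. Summed CPM, scaled by TMM, ranged higher in the Geminin-positive libraries for both lists, with overlapping gates. For condensin and cohesin it was 315 to 464 in the Geminin-positive and 248.5 to 332 in the Geminin-negative libraries. For entry and exit it was 253 to 319 and 190 to 307 in the same order.

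Several further genes had 0 counts in the whole Geminin-negative gate, as did 9.26% of all genes with a count. Those given here were named for the smallest p of their lists, and none passed the edgeR test. Others at 0 throughout that gate, among them cenph and cenpt, are not described. The condensin I gene ncaph had 262, 69 and 378 counts in Geminin-positive replicates 1 to 3, at least 406-fold higher (edgeR adjusted p = 0.06929). The condensin II gene ncapd3 was at least 146-fold, the securin gene pttg1 at least 178-fold, the kinetochore scaffold gene knl1 at least 240-fold, the centromere gene mis18a at least 182-fold and the checkpoint gene bub1ba at least 148-fold higher. Likewise depdc1a was at least 296-fold, the spindle gene dlgap5 at least 197-fold, the kinesin gene kif20bb at least 161-fold and g2e3 at least 270-fold higher. Such folds pool the counts of each gate. They cover the counting error of the Geminin-negative gate only, not that of the Geminin-positive gate or the spread between libraries. For knl1 the counts in Geminin-positive replicates 1 to 3 were 11, 194 and 214, and for bub1ba 17, 159 and 83. Of the genes with counts in both gates, cdca3, whose frog counterpart helps degrade the Cdk1 inhibitor Wee1, had 36.5 ± 10.4 CPM in the Geminin-positive and 3.73 ± 3.84 CPM in the Geminin-negative libraries (edgeR adjusted p = 0.4658). In the other direction stood wee1, the kinase gene that holds Cdk1 inactive, with 6.97 ± 6.29 CPM in the Geminin-positive and 23.2 ± 2.13 CPM in the Geminin-negative libraries (log2 fold change -1.73 with an SE of 0.84, adjusted p = 0.6274 by edgeR). Its gates did not overlap.

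Subunits of the anaphase-promoting complex, the ubiquitin ligase present through much of the cycle, had a median log2 fold change of 0.31 over 12 tested, 7 positive and 5 negative, with 0 called by edgeR or DESeq2 and 1 higher at an unadjusted p under 0.05, against 3.64% of all genes. That gene, the scaffold subunit anapc1, had 31.4 ± 21.5 CPM in the Geminin-positive and 7.28 ± 4.26 CPM in the Geminin-negative libraries, with overlapping gates (edgeR adjusted p = 0.4198). S phase genes, 44 tested of 49, had a median of 0.29 with 28 positive. None passed the edgeR test. At an unadjusted p under 0.05, 3 were higher and 2 lower, against 3.64% and 5.76% of all genes, and DESeq2 called 2 higher and 1 lower, against 2.09% and 3.93%, so these counts were close to those over all genes. They took 0.0713% ± 0.0113 of counts in the Geminin-positive and 0.0856% ± 0.0203 in the Geminin-negative libraries, with overlapping gates. Their summed CPM, scaled by TMM, ranged higher in the Geminin-positive libraries, at 701 to 967 against 541 to 861 in the Geminin-negative ones, also with overlap. The S phase cyclin gene ccne2 had 15.8 ± 3.21 CPM in the Geminin-positive and 3.22 ± 0.773 CPM in the Geminin-negative libraries (edgeR adjusted p = 0.3484), with gates apart. The sliding clamp gene pcna had 94.4 ± 32.5 CPM in the Geminin-positive and 50.5 ± 4.99 CPM in the Geminin-negative libraries (edgeR adjusted p = 0.3549). For mcm3, which codes for a subunit of the replicative helicase, the level was 10.7 ± 2.35 CPM in the Geminin-positive and 30.4 ± 12.3 CPM in the Geminin-negative libraries (edgeR adjusted p = 0.3332). Their gates did not overlap, and for mcm3 the Geminin-negative gate was the higher one. The difference between the S phase and the mitosis genes was not tested.

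**Figure D4:**
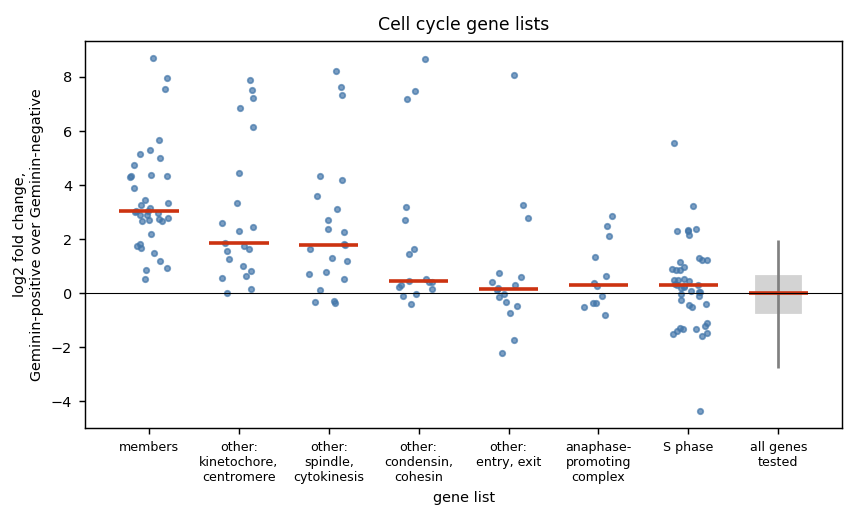
Log2 fold change (y axis, Geminin-positive over Geminin-negative) of each gene tested in the members, 4 lists of other G2 and mitosis genes, the anaphase-promoting complex and S phase (x axis), with red bars at the medians; genes with 0 counts in the Geminin-negative gate are drawn at their lower bound. The box for all genes spans the 25th to 75th and the line the 5th to 95th percentile, and the member median lies at 3.02.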

How the data were processed

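RNA sequencing counts were analysed for 6 libraries of sorted zebrafish osteoblasts, 3 per gate. The authors deposited raw counts of reads per gene. The submitters' processing notes name featureCounts 1.6.1, TopHat2 2.1.1, Trim Galore 0.4.1 and the build danRer10. Whether strand was used, how shared or multiply mapped reads were treated and which annotation was used is not given in the labels or file headers. Total counts ranged from 15854710 to 34472612 per library, and intervals and floors cover counting error only. Members were matched by symbol and chromosome (40) or by an older or base symbol, chromosome and a neighbour within 10 genes of RefSeq assembly GRCz12tu (4); coordinates are those of the deposited tables.

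Counts were tested with edgeR 4.0.16 in R 4.3.3 (filterByExpr, TMM, robust quasi-likelihood, Benjamini-Hochberg over all genes, threshold 0.05). A positive log2 fold change is higher in Geminin-positive libraries, and the SE is the fold change over the root of F. CPM is scaled by TMM library size; TPM was computed from counts and exon length. A fold against a group at 0 counts uses a floor of 3 counts over that group. It pools the counts of each gate, so it leaves out the spread between libraries and the counting error of the other gate. Alternatives were size factors, library size alone, no filter, a filter of 10 CPM in 3 libraries, DESeq2 1.42.0, limma-voom (limma 3.58.1), the replicate block and leaving out each library. On simulated counts, 11234 genes were tested, with 50 changed at each fold. The fit recovered 22%, 64%, 80% and 92% of changes of 4-, 8-, 16- and 32-fold, with 12 false calls. The changed genes had a mean of at least 10 CPM, which many members did not reach. Members and lists were chosen with earlier results of these data known. Levels are given for every matched member; tests are given mainly for up to 4 members per role group with the smallest p, the one highest per length and those at 0 in a group, and others were chosen after their values were seen. Of each other cell cycle list, up to 3 genes with the smallest p are named, and the cell type marker lists are given mainly as sums. Promoter motifs, which had been planned, are not analysed here, and marker lists of keratinocytes (median log2 fold change -1.36) and of endothelium and nerve (0 genes tested) were also summed.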

Additional observations from a re-analysis of the deposited data

How the results depend on the processing

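The median log2 fold change of the members was positive in all 13 alternative fits. It was 3.02, 5.94 with limma-voom, 5.02 with the replicate block, and 2.52 to 3.78 without 1 library. In the fits with a filter, a gene can pass through its Geminin-positive libraries alone. These medians and signs therefore describe the list and do not test it. Of 459 refits of single members, 423 kept direction and call, 33 passed the threshold, and 3 turned, all of ccnb2: -1.24 with limma-voom, -1.38 with the replicate block and -2.49 without Geminin-positive replicate 3, within -2.49 to 1.70 without 1 library. The count of members called, 0, was 15 without a filter, 12 with DESeq2, 1 with limma-voom, 1 with the replicate block (cdk1, edgeR adjusted p = 0.04959), and 0 to 3 without 1 library: 3 without Geminin-negative replicate 1 and 2 without Geminin-negative replicate 3. Over all genes 78 were called, against 185 with library size alone, 557 without a filter, 144 with the stricter filter, 844 with DESeq2 and 134 with the replicate block. Without 1 library there were 22 to 96: 34 and 40 without Geminin-positive replicates 2 and 3, and 32, 22 and 25 without Geminin-negative replicates 1, 2 and 3. The members' share of counts was higher in Geminin-positive libraries by 0.0529 percentage points, by 0.112 without the 10 most abundant genes, a smaller denominator, and by 0.0386 to 0.0603 without 1 library. The replicate block rests on a shared number alone: deviations of same-numbered libraries correlated at 0.182, 0.058 and 0.040. The cause of the other changes was not tested. Depth limits what can be read under about 0.2 CPM, but members were also at 0 beside far higher levels in the same gate. For plk1 the Geminin-positive replicates 1 to 3 had 8.51, 0 and 34.7 CPM. The cause of such zeros was not tested.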
